A study of Rattus norvegicus with 8 samples.

Results

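The genes described here make bile acids from cholesterol in hepatocytes or regulate that synthesis. They are Cyp7a1, Cyp7b1, Cyp8b1, Cyp27a1, Hsd3b7, Akr1d1, Slc27a5 and Baat, which encode enzymes, and Nr1h4 and Nr0b2, which encode nuclear receptors. They were chosen by name, as probe sets carrying 1 of these symbols alone in the platform annotation. No rule on their values was used, but earlier results of these data were known. All 10 had a probe set of their own, 1 each, among the 14506 named genes of the array. RNA came from livers of male Wistar rats aged 6 to 10 weeks, an outbred strain with no genetic change stated. The isolated livers were supplied through their vessels with Krebs-Henseleit buffer, a salt solution buffered with bicarbonate, in place of blood. In 4 samples the buffer was normoosmotic (305 mosm/L) and in 4 it was hypoosmotic (225 mosm/L), which makes cells take up water and swell. All 8 samples carry the 120 min time point of perfusions that ran for up to 180 min. The labels do not say whether each sample was a separate animal, so the p-values describe the spread among these samples, which may be technical in part.

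Bile acids are made along 2 routes. The classic route starts with Cyp7a1, its rate-limiting hydroxylase, and the alternative route with the mitochondrial hydroxylase Cyp27a1 followed by Cyp7b1. Both routes share enzymes that rework the sterol ring, and the acids are then activated by Slc27a5 and joined to glycine or taurine by Baat. Bile acids hold back their own synthesis through the receptor FXR (Nr1h4), which induces the repressor SHP (Nr0b2). A perfusate without blood supplies neither portal hormones nor bile acids returning from the gut.

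Of the 10 genes, Cyp7b1 alone changed between the buffers by the test over all genes, and it fell. Taken back from the log2 means to the linear scale, its level in hypoosmotic samples was 58.2% of the normoosmotic level. Cyp7a1 and Nr0b2 had mean differences of similar direction, −0.77 and −0.60 log2 units, but their arrays overlapped between groups and neither passed the test. The ring enzymes, the conjugating enzymes, Cyp8b1, Cyp27a1 and Nr1h4 had differences between −0.20 and 0.20 log2 units. Differences are hypoosmotic minus normoosmotic log2 expression values throughout, fitted with limma, and a gene was called at a Benjamini-Hochberg adjusted p under 0.05 over the 14506 genes.

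Thus 1 of the 10 genes was called lower and 0 higher, against 1.98% of all genes in either direction, 1.42% lower and 0.558% higher. An unadjusted p under 0.05 was found for 2 of the 10, Cyp7b1 and Nr0b2, against 14.6% of all genes. The fitted difference was below 0 in 8 of the 10, against 5987 of the 14506 genes. Among the 8, Cyp8b1 at −0.055 and Cyp27a1 at −0.075 changed sign when certain single arrays were left out. The median was −0.17 over the 10 and 0.04 over all genes. The groups did not overlap in 1 of the 10, against 8.27% of all genes in either direction, 5.05% lower and 3.21% higher. Levels of different genes are not compared, because probe sets differ in how strongly they bind.

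**Figure D1:**
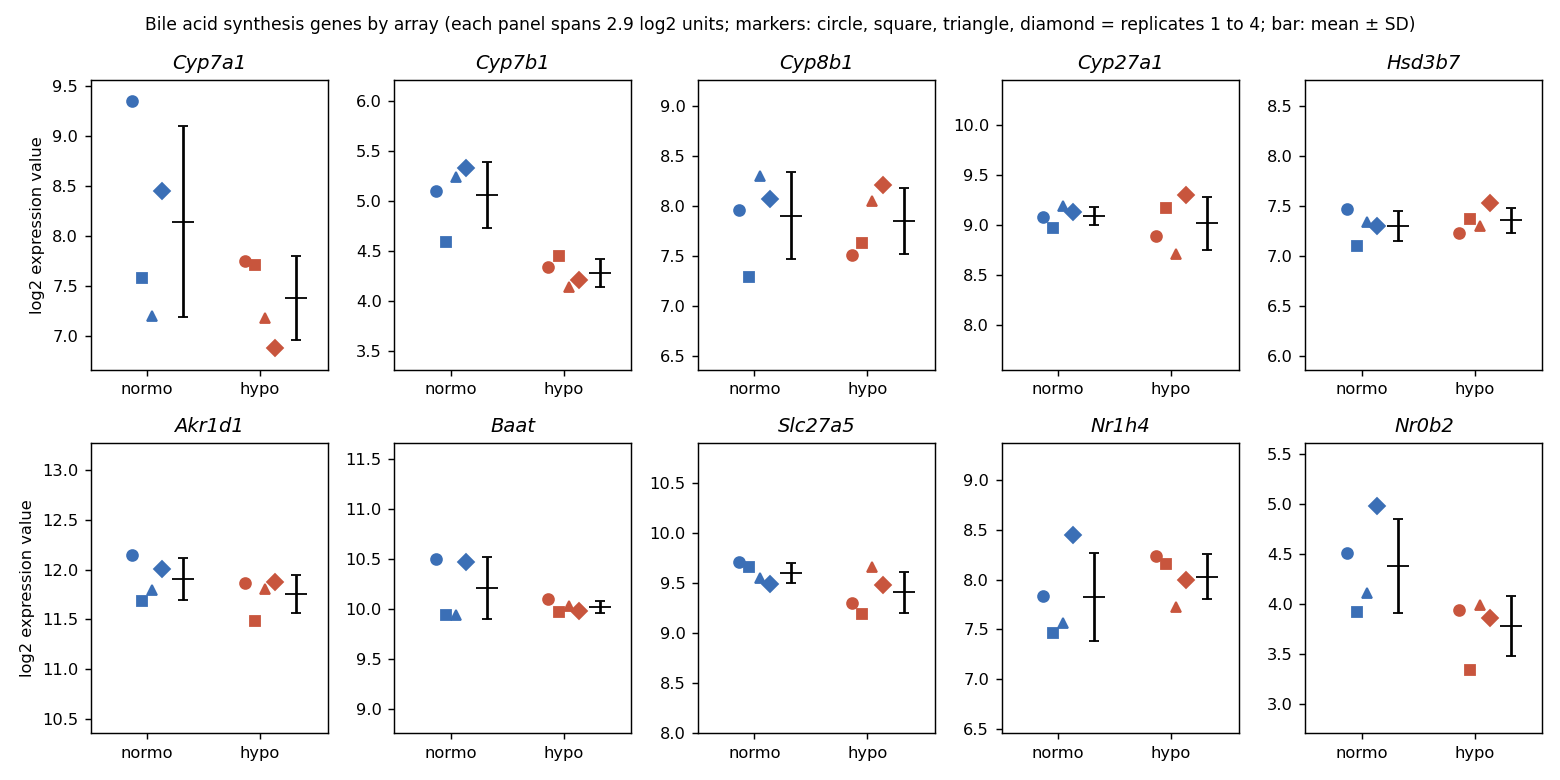
Deposited log2 expression values of the 10 genes on each array, normoosmotic (blue) and hypoosmotic (red), with a marker shape for each replicate number and the group mean ± SD beside the points (n = 4 each). Each panel has its own axis of equal span, and the Cyp7b1 panel is the 1 in which the groups are apart, with every hypoosmotic array at or below 4.45 and every normoosmotic array at or above 4.59.

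Cyp7b1 (probe set 10822424, gene ID 25429) encodes the hydroxylase that acts on oxysterols in the alternative route. Its log2 values were 5.10, 4.59, 5.24 and 5.33 in normoosmotic replicates 1 to 4. In hypoosmotic replicates 1 to 4 they were 4.34, 4.45, 4.14 and 4.21. The groups were separated by 0.14 log2 units, and normoosmotic replicate 2 was the array of its group nearest to the hypoosmotic ones. The means were 5.06 ± 0.33 and 4.29 ± 0.14 (SD, n = 4 each).

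Cyp7b1 therefore fell by 0.78 log2 units with a standard error of 0.16, a 95% interval of −1.12 to −0.44 and an adjusted p of 0.0227 by limma. Taken back from the log2 means to the linear scale, the normoosmotic level was 1.72-fold the hypoosmotic level, with an interval of 1.36 to 2.17. The hypoosmotic values lay at or little above the median of all probe sets on an array, 4.05 to 4.16, where part of a signal may be background, so the fold may not be exact. The two-sided exact permutation test over samples gave 0.0286, the smallest p that 4 against 4 allow. The direction was the same without any 1 array, but the call was lost without normoosmotic replicate 1 (limma, adjusted p = 0.0678), 3 (0.0783) or 4 (0.0533) and without hypoosmotic replicate 1 (0.0533), 2 (0.0564) or 3 (0.0665). It was also lost with a clock score as a covariate (limma, adjusted p = 0.0698), where the difference was −0.75.

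Cyp27a1 (probe set 10924411) opens the alternative route and also oxidises the sterol side chain in the classic one. It read 9.08, 8.97, 9.19 and 9.13 on the normoosmotic arrays and 8.89, 9.17, 8.71 and 9.30 on the hypoosmotic arrays in log2 values. The hypoosmotic arrays lay on both sides of the normoosmotic ones, so the groups overlapped. The difference was −0.075, its 95% interval ran from −0.37 to 0.22 and limma gave an adjusted p of 0.864. Within an array, the log2 value of Cyp7b1 minus that of Cyp27a1 was −4.03 ± 0.25 in normoosmotic and −4.73 ± 0.25 in hypoosmotic samples (SD, n = 4 each).

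That within-array difference was lower in hypoosmotic samples by −0.71 with a standard error of 0.18, and its groups did not overlap. The exact permutation p was 0.0286, and 0.0857 after adjustment over the 3 within-array differences compared. It thus did not pass the threshold after adjustment, which a single one of 3 comparisons of 4 against 4 samples could not do at its smallest exact permutation p.

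Cyp7a1 (probe set 10875324, gene ID 25428) sets the rate of the classic route. Its log2 values were 9.35, 7.58, 7.20 and 8.45 in normoosmotic replicates 1 to 4. In hypoosmotic replicates 1 to 4 they were 7.75, 7.71, 7.18 and 6.88. Normoosmotic replicates 1 and 4 lay above every hypoosmotic array, and normoosmotic replicates 2 and 3 lay within the hypoosmotic range.

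The mean of Cyp7a1 was 8.14 ± 0.96 in normoosmotic and 7.38 ± 0.42 in hypoosmotic samples (SD, n = 4 each). The difference of −0.77 had a standard error of 0.37, and its 95% interval ran from −1.56 to 0.03. The adjusted p was 0.368 by limma, and the exact permutation p was 0.229. Its size was close to that of Cyp7b1, but the spread within groups was wider, with a pooled SD of 0.74 against 0.25. That SD was larger than in 99.7% of all genes. The difference was −0.36 without normoosmotic replicate 1 and −1.08 without normoosmotic replicate 3.

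Cyp8b1 (probe set 10914411) encodes the hydroxylase that directs intermediates towards cholic acid. Its log2 values were 7.96, 7.29, 8.30 and 8.07 on normoosmotic arrays and 7.51, 7.63, 8.05 and 8.21 on hypoosmotic arrays. Both groups ranged over low and high arrays, and the hypoosmotic values all fell within the normoosmotic range. The difference was −0.055, its 95% interval ran from −0.51 to 0.40 and limma gave an adjusted p of 0.94. Within an array, Cyp8b1 minus Cyp7a1 was −0.24 ± 1.02 in normoosmotic and 0.47 ± 0.75 in hypoosmotic samples, a difference of 0.71 (exact permutation p = 0.286, adjusted over 3 p = 0.429). Without normoosmotic replicate 1 that difference was 0.33, and without normoosmotic replicate 3 it was 1.16. Cyp7a1 minus Cyp7b1 was 3.08 ± 0.94 and 3.10 ± 0.32 (SD, n = 4 each), a difference of 0.02 with a standard error of 0.50 (exact permutation p = 0.971).

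The ring enzymes overlapped between groups. Hsd3b7 (probe set 10711210) oxidises the ring after the first hydroxylation, and its log2 values ranged from 7.10 to 7.47 in normoosmotic and from 7.23 to 7.53 in hypoosmotic samples. The difference was 0.055, and limma gave it an interval from −0.20 to 0.31 and an adjusted p of 0.889. Akr1d1 (probe set 10854548) reduces the ring double bond, and it read 12.15, 11.68, 11.79 and 12.01 on normoosmotic and 11.86, 11.48, 11.80 and 11.88 on hypoosmotic arrays. Akr1d1 had a difference of −0.15 whose interval ran from −0.45 to 0.14 (limma, adjusted p = 0.679). The pooled SD of Hsd3b7 was 0.14, larger than in 25.2% of genes, and that of Akr1d1 was 0.20, larger than in 57.1%. For both enzymes the interval excluded a 2-fold change in either direction.

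**Figure D2:**
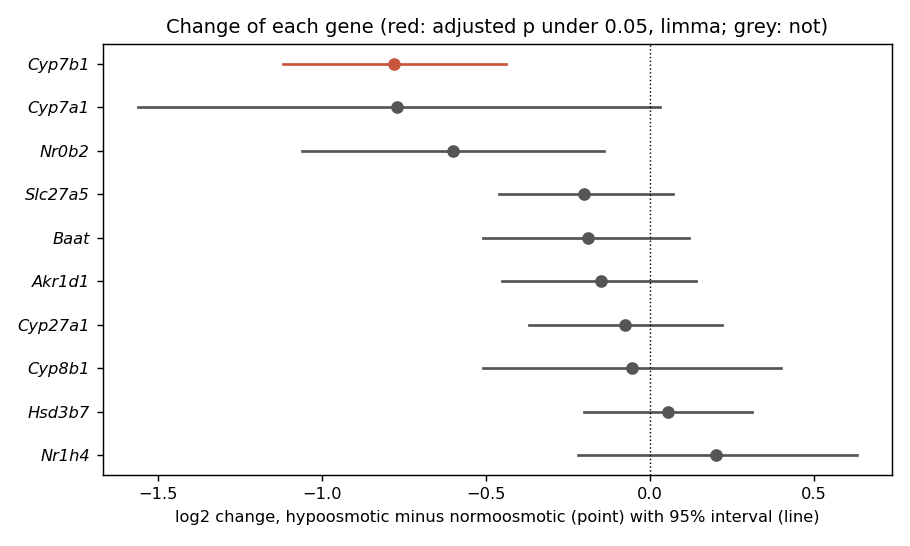
Fitted log2 change of each of the 10 genes, hypoosmotic minus normoosmotic (point), with its 95% interval from limma (line). Cyp7b1 at −0.78 is the 1 gene in red, called at an adjusted p of 0.0227, and Cyp7a1 at −0.77 has the widest interval, from −1.56 to 0.03.

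The enzymes of the last steps also overlapped between groups. Slc27a5 (probe set 10704284) couples bile acids to coenzyme A, and its log2 values were 9.71, 9.66, 9.55 and 9.49 on normoosmotic and 9.30, 9.19, 9.66 and 9.48 on hypoosmotic arrays. Hypoosmotic replicates 1, 2 and 4 lay below every normoosmotic array, and hypoosmotic replicate 3 equalled normoosmotic replicate 2. The difference was −0.20, its interval ran from −0.46 to 0.07 and limma gave an adjusted p of 0.53. Baat (probe set 10876711) forms the glycine and taurine conjugates, and it read 10.50, 9.94, 9.94 and 10.47 on normoosmotic arrays and 10.10, 9.97, 10.03 and 9.98 on hypoosmotic arrays. Normoosmotic replicates 1 and 4 were above, and normoosmotic replicates 2 and 3 below, all hypoosmotic arrays. For Baat the difference was −0.19, from −0.51 to 0.12, at an adjusted p of 0.615 by limma.

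Of the regulators, Nr0b2 (probe set 10880267, gene ID 117274) encodes SHP, a receptor without a DNA-binding domain that represses Cyp7a1. Its log2 values were 4.51, 3.92, 4.11 and 4.98 in normoosmotic replicates 1 to 4 and 3.94, 3.34, 3.99 and 3.86 in hypoosmotic replicates 1 to 4. The overlap came from normoosmotic replicate 2, which lay 0.07 below the highest hypoosmotic array. The means were 4.38 ± 0.47 and 3.78 ± 0.30 (SD, n = 4 each). The difference was −0.60 with a standard error of 0.21 and a 95% interval of −1.06 to −0.14, whose unadjusted p was 0.0145 and whose adjusted p was 0.19 (limma), so it did not pass the test. The exact permutation p was 0.0857. Its values too lay around the array medians.

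Nr1h4 (probe set 10901722) encodes FXR, the bile acid receptor that induces Nr0b2. It read 7.83, 7.46, 7.56 and 8.45 on normoosmotic and 8.24, 8.16, 7.72 and 8.0 on hypoosmotic arrays in log2 values. The highest and the lowest of the 8 values were both normoosmotic. The difference was 0.20, with limma's interval running from −0.22 to 0.63 and an adjusted p of 0.701, and it was opposite in sign to that of Nr0b2.

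The genes also varied from array to array within a group. Normoosmotic replicate 2 alone was the lowest array of its group for 7 of the 10 genes, tied with replicate 3 for Baat, and above the group mean for 1, Slc27a5. Normoosmotic replicates 1 and 4 were above the group mean for 9 and 8 of the 10. Hypoosmotic arrays were above their group mean for 5 or 6 of the 10 each. Among the normoosmotic arrays, replicates 1 and 4 were the highest for Cyp7a1, Baat, Akr1d1, Nr0b2 and Nr1h4. Repression of Cyp7a1 by the product of Nr0b2 was not tested.

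Over the deviations of the 8 arrays from their group means, Cyp7a1 and Baat had a Pearson r of 0.861 and a Spearman rho of 0.802. Akr1d1 and Nr0b2 had an r of 0.819 and a rho of 0.548, and Baat and Nr0b2 an r of 0.793 and a rho of 0.79. Of the 45 pairs of genes, 36 had an r above 0, with a median of 0.365 and a range from −0.604 for Slc27a5 with Nr1h4 to 0.861. These are descriptions over 8 arrays that share their scaling. On the values themselves, r between Cyp7a1 and Baat was 0.89 over 8 arrays and 0.278 over the 6 left without normoosmotic replicates 1 and 4, so the relation rests on those arrays. Between Cyp7a1 and Nr0b2 it was 0.591 and −0.43.

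**Figure D3:**
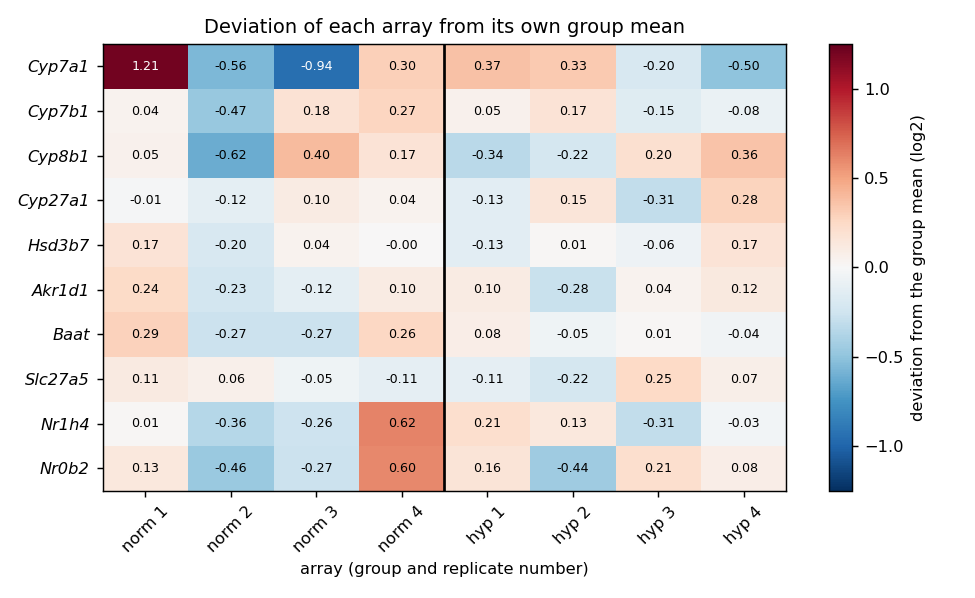
Deviation of each array's log2 value from the mean of its own group, for the 10 genes (rows) and 8 arrays (columns; norm and hyp stand for normoosmotic and hypoosmotic). Normoosmotic replicate 2 is below its group mean in every row except Slc27a5, and Cyp7a1 shows the widest deviations, from −0.94 to 1.21.

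The promoters of Baat and Nr0b2 are shown because these genes shared the high normoosmotic arrays, and that of Cyp27a1 because it was steady across those arrays. RefSeq windows of the GRCr8 build were matched by gene ID for 6 of the 10 genes, Cyp8b1, Cyp27a1, Hsd3b7, Baat, Slc27a5 and Nr0b2. The 250 bases before each start are given 5′ to 3′ along the gene's strand, at chr5:68656138-68656387 on the minus strand for Baat, chr5:151062910-151063159 on the plus strand for Nr0b2 and chr9:83713282-83713531 on the plus strand for Cyp27a1. Capitals mark matches to the searched motifs on either strand.
Baat: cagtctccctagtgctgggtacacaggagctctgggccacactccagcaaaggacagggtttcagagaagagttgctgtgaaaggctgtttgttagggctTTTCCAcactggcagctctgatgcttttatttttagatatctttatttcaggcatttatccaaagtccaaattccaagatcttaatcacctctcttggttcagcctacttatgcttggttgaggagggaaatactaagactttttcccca
Nr0b2: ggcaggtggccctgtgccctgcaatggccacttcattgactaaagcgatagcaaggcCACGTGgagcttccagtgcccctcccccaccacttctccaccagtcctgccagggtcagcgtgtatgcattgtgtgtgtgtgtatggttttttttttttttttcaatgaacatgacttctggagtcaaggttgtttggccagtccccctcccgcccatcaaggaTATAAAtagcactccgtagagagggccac
Cyp27a1: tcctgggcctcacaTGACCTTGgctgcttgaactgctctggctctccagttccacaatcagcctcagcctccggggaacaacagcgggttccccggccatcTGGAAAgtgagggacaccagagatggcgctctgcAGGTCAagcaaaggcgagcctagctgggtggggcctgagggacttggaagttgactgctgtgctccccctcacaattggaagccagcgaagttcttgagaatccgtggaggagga

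The motifs searched were the E-box CACGTG, the D-box forms TTATGTAA and TTACGTAA, the nuclear receptor site AGGTCA, the LRH-1 site CAAGGTCA, which contains the former, the forkhead site GTAAACA, the AP-1 site TGANTCA, the NFAT core TGGAAA and the TATA box TATAAA. The Nr0b2 window held an E-box at −193 to −188 and a TATA box at −29 to −24 from the start, motifs found in 5.59% and 12.9% of the 33469 RefSeq windows of this length. The Cyp27a1 window held an LRH-1 site at −236 to −229 on the opposite strand, present in 1.33% of windows, and a further nuclear receptor site, present in 14.1% of windows, at −115 to −110. An NFAT core stood in the windows of Cyp27a1 and Baat, as in 19.7% of all. These letters describe the windows and do not show binding. No searched motif matched in the windows of Cyp8b1, Hsd3b7 and Slc27a5.

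Genes with the most similar profiles over the 8 arrays were listed for Cyp7a1 and Cyp7b1 among 10842 named genes outside the dimmest 25%. For Cyp7b1 they were Mterf1 (Pearson r = 0.978, Spearman rho = 0.929), Rab3gap2 (0.973 and 1.0), Adgrl4 (0.957 and 0.881), Dusp8 (0.956 and 0.905) and Smc3 (0.955 and 0.905). Smc3, a cohesin subunit gene, was the 1 of these called lower, at −0.67 (limma, adjusted p = 0.0179), against 1.42% of all genes. Cyp7b1 was itself lower in hypoosmotic samples, so genes chosen for likeness to it tend to be lower there too. The call of Smc3 is therefore no support for that of Cyp7b1. For Cyp7a1 they were S100a4 (0.936 and 0.958), Itgal (0.934 and 0.69), Ctr9 (0.926 and 0.826), Spaca6 (0.914 and 0.952) and Zfp949 (0.914 and 0.85), none of them called. With so many candidates and 8 arrays, high values of r arise readily, and the lists only name the closest profiles.

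Other genes of the pathway were taken from lists chosen by function. Over all genes, 1.98% were called in either direction and 14.6% had an unadjusted p under 0.05 (limma). Of 17 measured further enzymes of bile acid synthesis and transfer, 0 were called by limma and 0 had an unadjusted p under 0.05. Their median difference was −0.0225, and they lay between −0.60 for the sulfotransferase gene Sult2a1 and 0.18 for Cyp46a1, the cholesterol hydroxylase of brain. Of 14 genes of cholesterol supply and storage, 0 were called and 2 had an unadjusted p under 0.05, with a median of 0.00125 and a range from −0.34 for Lss to 0.34 for Dhcr7, both enzymes of cholesterol synthesis.

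Of 24 regulators of bile acid synthesis, 2 were called higher and 0 lower, with 8 at an unadjusted p under 0.05. Over all genes the shares were 0.558%, 1.42% and 14.6%. S1pr2 encodes a sphingosine phosphate receptor that conjugated bile acids also activate. It read 5.96, 5.95, 6.15 and 6.01 on normoosmotic and 6.55, 7.30, 6.83 and 7.37 on hypoosmotic arrays in log2 values, and the groups were separated by 0.40. S1pr2 rose by 0.99 with a standard error of 0.17 (limma, adjusted p = 0.00996) and kept its call without any 1 array.

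Foxa2, a hepatocyte transcription factor gene, read 5.03, 5.08, 4.92 and 5.31 on normoosmotic and 5.42, 5.81, 5.95 and 6.07 on hypoosmotic arrays. It rose by 0.73 with a standard error of 0.15 (limma, adjusted p = 0.0237). The call of Foxa2 was lost without normoosmotic replicates 1 (limma, adjusted p = 0.0717), 2 (0.0517) or 3 (0.0831), without hypoosmotic replicates 2 (0.0801) or 3 (0.0713), and with the clock score (0.0729). The list's median was 0.12, and its lowest value was −1.08 for the hepatokine gene Fgf21, not called. Hnf4a, a nuclear receptor that activates Cyp7a1 and Cyp8b1, differed by 0.24, from −0.01 to 0.49 in its 95% interval, at an adjusted p of 0.358 by limma.

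Of 14 transporters of bile acids and lipids, 1 was called lower and 0 higher, against 1.42% and 0.558% of all genes. An unadjusted p under 0.05 (limma) was found for 3 of the 14, against 14.6% of all genes. The called gene was Abcc2, the canalicular export pump for organic anions. It read between 10.76 and 11.07 on normoosmotic and between 10.11 and 10.25 on hypoosmotic arrays. Abcc2 fell by 0.69 log2 units (limma, adjusted p = 0.00752), and the median of the list was −0.0112.

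**Figure D4:**
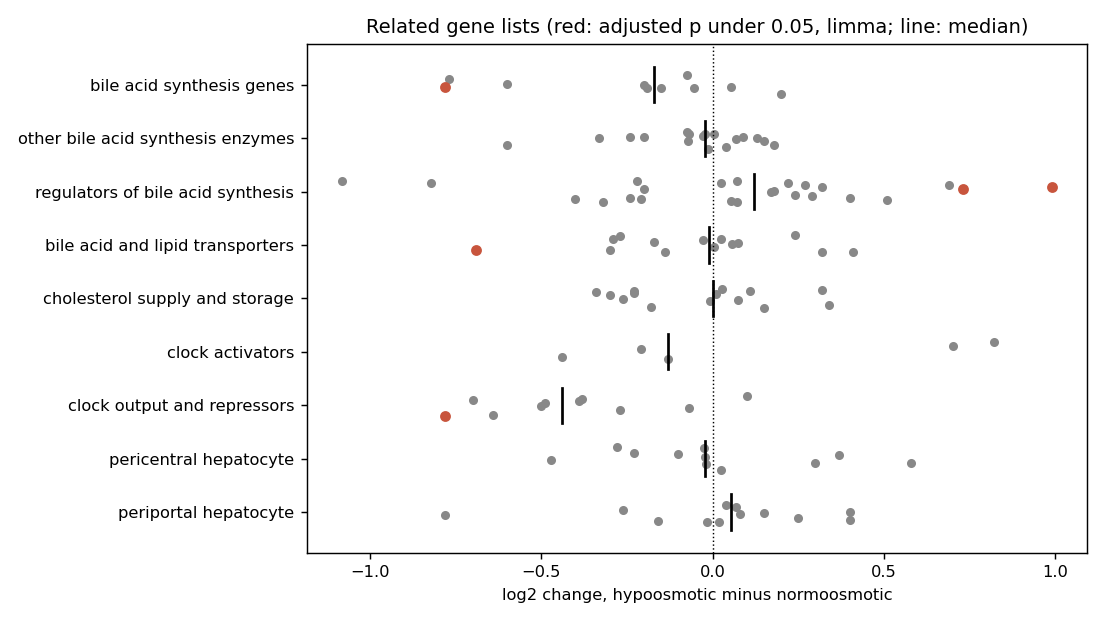
Fitted log2 changes, hypoosmotic minus normoosmotic, of the 10 bile acid synthesis genes and of the genes in 8 related lists, with 1 point for each measured gene, red where called by limma and a black line at the list median. The red points are Cyp7b1, S1pr2, Foxa2, Abcc2 and Nr1d2, and the list medians run from −0.44 for clock output genes to 0.12 for regulators. The list marked clock activators also holds the repressor genes Cry1 and Nfil3.

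Synthesis of bile acids follows the time of day in rodents, and clock genes differed among arrays of 1 group. Dbp, a clock output factor known to act on Cyp7a1, read 8.89, 6.22, 9.04 and 6.31 on normoosmotic and 5.96, 6.43, 7.98 and 8.08 on hypoosmotic arrays. Dbp was high on normoosmotic replicates 1 and 3 and on hypoosmotic replicates 3 and 4. Cyp7a1 was highest on normoosmotic replicate 1 and low on the rest of these arrays. Between Dbp and Cyp7a1, Pearson r was 0.00561 over the 8 arrays and −0.782 over the 6 left without normoosmotic replicates 1 and 3. Cyp8b1 had an r of 0.749 with Dbp and Hsd3b7 one of 0.631, and 0.745 and 0.655 over those 6. For the other genes r over the 8 arrays ran from −0.492 for Nr1h4 to 0.545 for Slc27a5. The part of Dbp in the values of these genes was not tested. Bmal1 read 4.85, 7.18, 4.75 and 7.32 on normoosmotic arrays and between 6.42 and 7.15 on hypoosmotic ones, and Npas2 between 4.27 and 6.54 and between 5.74 and 6.29. A clock score, taken over from an earlier analysis of these data, was Bmal1 and Npas2 averaged, less the average of Dbp and Per3, and it ran from −3.38 to 1.49 in normoosmotic and from −0.52 to 1.38 in hypoosmotic samples.

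Nr1d1, the clock repressor REV-ERBα, read 8.20, 7.27, 8.0 and 7.97 on normoosmotic and 7.15, 6.67, 7.97 and 8.12 on hypoosmotic arrays. Cyp8b1 was low on the arrays where Nr1d1 was low, with a Pearson r of 0.791 and a Spearman rho of 0.635 over the 8 arrays. Over the 6 left without hypoosmotic replicates 1 and 2, r was 0.876, but normoosmotic replicate 2 was far the lowest of these for both genes. It read 7.27 for Nr1d1 and 7.29 for Cyp8b1, against 7.97 to 8.20 and 7.96 to 8.30 on the others, so that r rests on 1 array. The likeness to Nr1d1 was not particular to Cyp8b1. Akr1d1, Slc27a5 and Nr0b2 had an r of 0.779, 0.715 and 0.661 with Nr1d1, and of 0.712, −0.237 and 0.307 over the same 6 arrays. For the other genes r over the 8 arrays ran from −0.187 for Nr1h4 to 0.481 for Hsd3b7, with Cyp7a1 at 0.135. Over the same 6 arrays Hsd3b7 had an r of 0.903, and it too was lowest on normoosmotic replicate 2. The rest ranged over those 6 from 0.15 for Cyp7b1 to 0.47 for Nr1h4. Of 10 clock output genes and repressors 1 was called, against 1.98% of all genes. An unadjusted p under 0.05 (limma) was found for 3 of the 10, against 14.6% of all genes. The called gene was Nr1d2, which fell by 0.78 (limma, adjusted p = 0.0318), and the list median was −0.44. The call of Nr1d2 was lost without normoosmotic replicates 1 (limma, adjusted p = 0.0966) or 3 (0.0991), without hypoosmotic replicates 1 (0.0869) or 2 (0.111), and with the clock score (0.0735). A further list of 5 clock genes held Bmal1, Npas2 and Clock along with the repressor genes Cry1 and Nfil3, and 0 were called. The part of the clock in the values of Cyp7b1 was not tested beyond the covariate given above.

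Cell makeup was read from markers. Hepatocyte markers, 12 of 12 measured, had log2 values between 11.63 and 13.08, with Alb at 13.07 ± 0.01 in normoosmotic and 13.02 ± 0.07 in hypoosmotic samples (SD, n = 4 each). These values lie near the top of the scale, where the highest value of any probe set was 13.26, and whether they were saturated was not tested, so they show that hepatocyte RNA was present and not how steady its share was. Over 7 marker lists with 70 measured genes, 0 were called by limma, against 1.98% of all genes. An unadjusted p under 0.05 (limma) was found for 6 of the 70, against 14.6% of all genes. The list medians lay between −0.11 and 0.12. The mean log2 value over 7 erythroid genes ranged from 3.92 to 4.55 in normoosmotic and from 3.81 to 4.46 in hypoosmotic samples, but the beta-globin genes Hbb and Hbb-b1 among them had larger differences. Hbb read 6.35, 7.78, 7.63 and 8.31 on normoosmotic and 6.70, 7.44, 6.19 and 6.33 on hypoosmotic arrays, a difference of −0.85 with an unadjusted p of 0.0312 and an adjusted p of 0.279 by limma. Hbb-b1 differed by −0.99 (limma, adjusted p = 0.366), and its arrays also overlapped between groups. These differences were as large as that of Cyp7b1, and their part in it was not tested. The mean over 11 Kupffer cell genes ranged from 6.44 to 6.93 in normoosmotic and from 6.50 to 7.12 in hypoosmotic samples. The fitted difference was above 0 in 10 of these 11, against 8434 of the 14506 genes. Their median was 0.11, and 0 of them had an unadjusted p under 0.05 (limma). Of the hepatocyte zones, 11 pericentral genes, of the region where Cyp7a1 is mainly expressed, had a median difference of −0.0225 and 12 periportal genes one of 0.0538, with 0 called in each. Single genes differed in both directions, from −0.47 to 0.58 in the pericentral and from −0.78 to 0.40 in the periportal list. An unadjusted p under 0.05 (limma) was found for 3 of the 11 and 2 of the 12, against 14.6% of all genes. In whole liver, fewer cells of a type and less RNA per cell cannot be told apart.

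Nfat5, the osmosensing transcription factor gene, and Myc fell in the same samples, with changes of −0.94 and −0.82 log2 units (limma, adjusted p = 0.00159 and 0.00581). Both were apart between groups on every array, with pooled SDs of 0.09 and 0.16 against 0.25 for Cyp7b1.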

How the data were processed

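Total RNA from perfused rat liver, in 8 samples, was labelled with biotin and hybridised to 1-colour Affymetrix arrays, per the labels' protocols. Per the submitters' processing notes, the values were made with Transcriptome Analysis Console 4.0; the summarisation of probes and the normalization are not stated in the labels read here. The deposited values, used unaltered, are log2 expression values with array medians between 4.05 and 4.16 and a range of 0.88 to 13.26. The log2 scale was read from that range. Arrays have no read depth, the 4 arrays per group limit precision, and low values may be background.

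Of 27596 probe sets, 15310 had 1 gene symbol in the platform annotation, 323 carried more than 1, and 11963 have no name here. Symbols were updated by gene ID through the RefSeq table of GRCr8, which held 15279 of them, and the probe set with the highest mean was taken for the 527 genes with several, giving 14506 genes. Limma 3.58.1 in R 4.3.3 (lmFit, eBayes, two-sided) compared the groups without further terms, with Benjamini-Hochberg adjustment over all genes, and the code was checked on simulated data. Single values were also compared by exact permutation over samples.

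The 10 genes, the related lists and the alternatives were chosen with earlier results of these data known. The 10 genes are all named, along with up to 3 called genes of each list and the ends of the range of some lists. Bmal1, Npas2, Dbp, Nr1d1, Nfat5, Myc, Hnf4a and Alb are named too, as are the 5 profiles most like Cyp7a1 and Cyp7b1. Onecut1, Hbb, Hbb-b1 and the regulators set beside Onecut1 and Hnf4a were named after their values were seen. The comparison was repeated without each array in turn, with a replicate block, with the clock score as a covariate, at thresholds of 0.1 and 0.01, after quantile normalization or median subtraction, without the dimmest 25% of genes, with array weights or another variance prior, and with probe sets averaged or all kept.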

Additional observations from a re-analysis of the deposited data

Results flagged for a closer look

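The 41 genes given with values above and the 3 within-array differences make 88 groups of 4 values, and in 5 of them 1 array lay far from the others, past the 95% critical value of Dixon's test. About 1 in 20 groups is picked out in this way by chance. None of them belonged to the 10 bile acid synthesis genes. Sult2a1 read 10.44 in normoosmotic replicate 3, against 9.70 to 9.73 on the other normoosmotic arrays. Nfat5 read 6.86 in the same sample, against 6.98 to 7.0. Cyp46a1 read 4.21 in normoosmotic replicate 1, against 4.43 to 4.47. In hypoosmotic replicate 4, Lss read 6.86 against 7.16 to 7.19 on the other hypoosmotic arrays, and Itgal read 5.08 against 5.40 to 5.43.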

How the results depend on the processing

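Cyp7b1 kept its direction in all 17 alternatives, between −0.94 and −0.69, and its call in 10. The count of the 10 genes called lower was 1, and 0 at a threshold of 0.01, with the clock covariate and without 6 of the 8 arrays, so leaving out 1 array gave 0 to 1. The call held under quantile normalization (limma, adjusted p = 0.0161), array medians subtracted (0.0151), without the dimmest 25% (0.0203) and with all probe sets (0.034). None of the 10 was called higher in any alternative. The replicate block gave a limma adjusted p of 0.0476 for Cyp7b1 and 256 genes called in all. With the block the standard error fell from 0.37 to 0.28 for Cyp7a1 and from 0.21 to 0.15 for Nr0b2, neither called (limma, adjusted p = 0.219 and 0.085). It stayed at 0.16 for Cyp7b1 and rose from 0.12 to 0.13 for Slc27a5. Arrays of the same number had residual correlations of 0.046, 0.028, 0.083 and 0.173. Values for arrays of unlike number are not given, so these cannot decide whether the numbers mark pairs. The main fit did not treat them as pairs. Over all genes 287 were called, against 92 with the clock covariate, 601 at 0.1, 68 at 0.01 and 81 to 365 without 1 array. Genes of the related lists called lower numbered 2, and 1 to 3 without 1 array, and called higher 2, and 1 to 4. Among uncalled differences, Cyp8b1 turned to 0.11 with the clock covariate and ranged from −0.26 to 0.0767 without 1 array, Cyp27a1 from −0.17 to 0.0275 and Hsd3b7 from −0.0125 to 0.11, and Cyp7a1 minus Cyp7b1 from −0.36 to 0.41. Without 1 array Akr1d1 ranged from −0.23 to −0.0608, Baat from −0.28 to −0.0967, Slc27a5 from −0.28 to −0.12, Nr1h4 from 0.0833 to 0.41, Nr0b2 from −0.75 to −0.40 and Cyp8b1 minus Cyp7a1 from 0.33 to 1.16. The causes were not tested.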

Other observations

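Of the 24 regulators, Onecut1 and Fgf21, chosen after their values were seen, had the highest Pearson r with Cyp7a1; by Spearman rho, Gps2 (0.524) came before Fgf21. Onecut1, a hepatocyte transcription factor gene, read 6.67, 5.49, 5.67 and 6.13 on normoosmotic and 5.13, 5.04, 5.52 and 4.99 on hypoosmotic arrays, a difference of −0.82 that was not called (limma, adjusted p = 0.0756). Like Cyp7a1, it was highest on normoosmotic replicates 1 and 4. Its Pearson r with Cyp7a1 was 0.822 and its Spearman rho 0.571 over 8 arrays, and r was −0.132 over the 6 left without those arrays. Fgf21 read 9.08, 7.06, 7.37 and 7.58 on normoosmotic and 6.99, 6.22, 7.21 and 6.34 on hypoosmotic arrays (limma, adjusted p = 0.156), with an r of 0.807, a rho of 0.476 and an r of −0.0303 without the same arrays. Hnf4a ran the other way, with an r of −0.78 and a rho of −0.81, and an r of −0.722 over those 6 arrays. This was not particular to Hnf4a. Nr1i2 had an r of −0.74 and Prox1 one of −0.687 over the 8 arrays. Over the 6 arrays Ppara (−0.895), Rxra (−0.813) and Nr1i3 (−0.797) had a lower r than Hnf4a.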
